A study of Mus musculus with 24 samples.

Results

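The 10 genes described here encode enzymes that use molecular oxygen to modify collagen: the prolyl 4-hydroxylase α subunits P4ha1, P4ha2 and P4ha3, the lysyl hydroxylases Plod1, Plod2 and Plod3, and the lysyl oxidases Lox, Loxl1, Loxl2 and Loxl3. They were taken by symbol, not by their values, from the 24043 genes of the deposited expression table. All 10 were found, and all 10 were among the 12389 genes that reached a mean of 1 FPKM (fragments mapped to a gene, scaled to transcript length and to the library's mapped fragments) in at least 1 group. C2C12 is an established mouse myoblast line that proliferates as single cells and can fuse into multinucleated myotubes. The cells were in growth medium with 10% fetal bovine serum (GM) or in differentiation medium with 2% horse serum and an insulin, transferrin and selenium supplement (DM), each at 21% oxygen (normoxia) or 2% oxygen (hypoxia). Each of the 4 conditions had 2 RNA-seq libraries, replicates A and B, which the series describes as biological replicates of this single line without saying whether they were separate cultures. The number of days in DM and the length of exposure to 2% oxygen are not given in the sources used here. The series also has 8 H3K27me3 chromatin and 8 input samples, which were not analysed here.

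Collagen chains are modified in the endoplasmic reticulum before they fold. The P4ha proteins are the catalytic subunits of collagen prolyl 4-hydroxylase, each working with the protein disulfide isomerase P4hb, and their product, hydroxyproline, keeps the collagen triple helix stable at body temperature. Plod enzymes hydroxylate lysines, which can then carry sugars or form stable cross-links. Both families need iron, ascorbate and oxoglutarate besides oxygen. Lysyl oxidases are copper enzymes that act outside the cell, where they turn lysines of collagen and elastin into reactive aldehydes that cross-link the fibres. Several of these genes are textbook targets of the hypoxia-inducible factor HIF, which binds DNA at a short core, ACGTG or GCGTG.

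Promoter windows were searched for this core as a description, with no test. RefSeq windows of 300 bases around the annotated start, build GRCm38.p6, were at hand for 5 of the 10 genes. Each was searched on both strands for ACGTG and GCGTG, so CACGT and CACGC count as matches, and CACGTG counts on each strand. The window of P4ha2 held 4 matches, as did that of Plod3, whereas P4ha1 had 3, Plod1 had 2 and P4ha3 had 0. Of all 32851 windows, 43.8% held at least 1 match, 20.6% at least 2, 8.93% at least 3 and 3.86% at least 4. The 5 windows were 53.3% to 70.3% G or C, and the shares over all windows were not matched for this. Plod3, with 4 matches, rose 1.80-fold in GM, and Plod1, with 2, rose 5.62-fold. The matches are letters in a window, not shown to be bound, and their part in the changes was not tested. Below is the part of each window that lies upstream of the annotated gene, 5′ to 3′ on the gene's strand, with matches in capitals. It is given for the 3 prolyl hydroxylase subunits and for Plod1. Of the subunits, P4ha1 and P4ha2 rose at 2% oxygen in both media, while P4ha3 fell in GM and rose in DM. The window of Plod3 runs into the neighbouring gene Znhit1 and is not printed. Coordinates are chr10:59323046-59323196 (plus strand) for P4ha1, chr11:54100674-54100923 (plus) for P4ha2, chr7:100285270-100285488 (plus) for P4ha3 and chr4:147936777-147937026 (minus) for Plod1.
P4ha1: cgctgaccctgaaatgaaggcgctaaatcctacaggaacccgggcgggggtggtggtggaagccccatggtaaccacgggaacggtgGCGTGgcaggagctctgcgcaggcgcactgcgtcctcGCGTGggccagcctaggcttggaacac
P4ha2: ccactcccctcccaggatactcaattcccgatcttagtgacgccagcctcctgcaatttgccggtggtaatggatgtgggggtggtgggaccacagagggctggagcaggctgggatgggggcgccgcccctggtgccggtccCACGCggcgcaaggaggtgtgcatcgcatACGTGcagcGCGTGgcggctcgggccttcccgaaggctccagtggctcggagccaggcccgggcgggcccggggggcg
P4ha3: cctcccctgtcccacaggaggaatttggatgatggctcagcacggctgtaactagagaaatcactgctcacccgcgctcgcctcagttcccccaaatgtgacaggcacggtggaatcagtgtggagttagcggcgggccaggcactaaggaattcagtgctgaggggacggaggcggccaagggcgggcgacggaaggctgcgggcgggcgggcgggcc
Plod1: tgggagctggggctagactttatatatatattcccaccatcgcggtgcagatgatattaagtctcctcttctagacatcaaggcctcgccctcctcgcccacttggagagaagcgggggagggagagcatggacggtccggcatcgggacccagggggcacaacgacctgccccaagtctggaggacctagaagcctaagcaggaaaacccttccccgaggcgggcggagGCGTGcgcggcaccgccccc
In these stretches P4ha1 shows 2 matches, P4ha2 shows 3, Plod1 shows 1 and P4ha3 shows 0.

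Most of these enzymes were far higher at 2% oxygen in both media. In GM, 7 of the 10 rose and 3 fell (adjusted p under 0.05), against 13.5% of all tested genes rising and 28.0% falling. In DM, 9 rose and 1 fell, against 37.5% rising and 27.7% falling. Median-of-ratios scaling moved the higher share of all called genes from 32.6% to 43.4% in GM and from 57.5% to 46.5% in DM, and upper-quartile scaling gave 49.3% in GM; the enzymes' counts were the same under both. The median change of the 10 was 1.70 (log2) in GM and 2.51 in DM, beside -0.14 and 0.15 for all tested genes. Changes throughout are differences of log2(FPKM + 1) with a standard error (SE) from limma, a linear model fitted to all 8 libraries, and adjusted p is its Benjamini-Hochberg value over 12389 genes. Adding 1 to each value understates the change of low genes. FPKM levels are per transcript length, so they can be set side by side between genes.

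**Figure D1:**
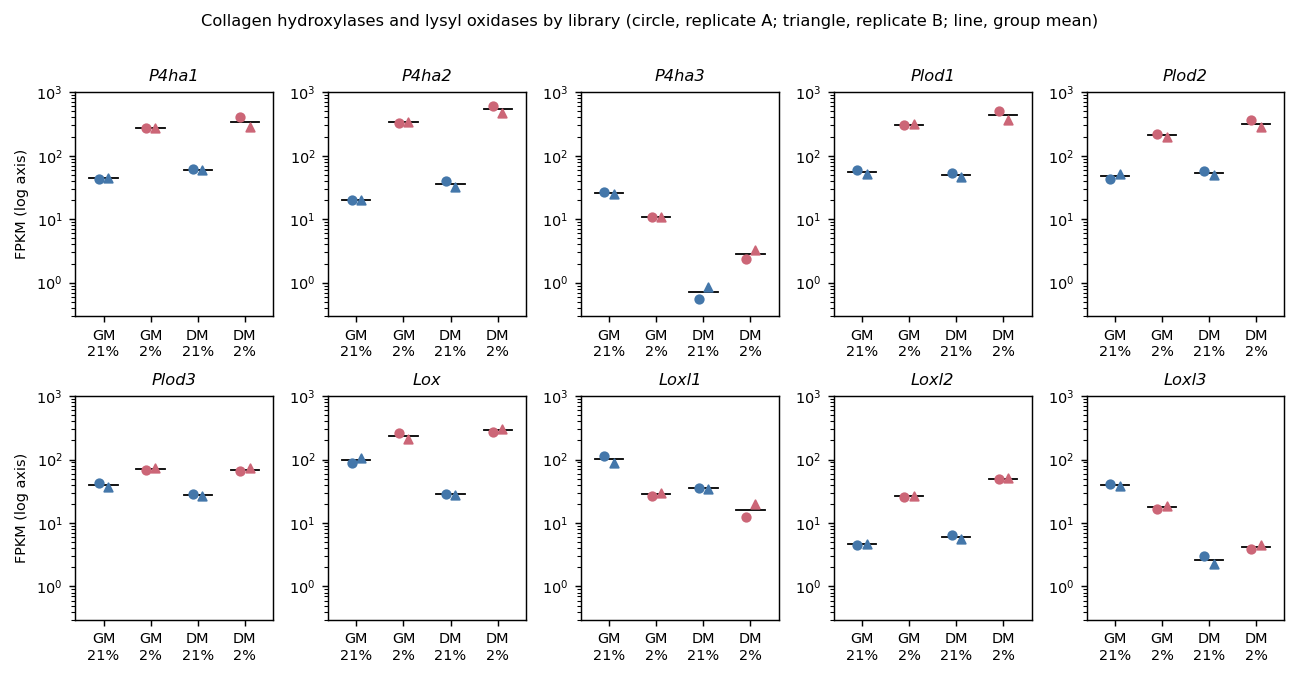
FPKM of each enzyme gene (log axis) in the 8 libraries, grouped by medium (GM, DM) and oxygen; circles are replicate A, triangles replicate B, lines the mean of the 2, blue 21% and red 2% oxygen. P4ha2 lies between 19.7 and 40.3 in the 4 libraries at 21% oxygen and between 330.4 and 614 at 2%, while Loxl1 is highest in GM at 21% oxygen.

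P4ha2 had the largest rise of the 10. It stood at 19.7 and 20.3 FPKM in GM at 21% oxygen (replicates A and B), 40.3 and 31.8 in DM at 21%, 330.4 and 342 in GM at 2%, and 614 and 467 in DM at 2%. The libraries at 2% oxygen lay far above all those at 21%, with no overlap between any of the 4 groups. In GM the mean was 16.8-fold higher at 2% oxygen (log2 change 4.00, limma adjusted p = 2.51e-05), and 28 tested genes rose more. The rise in DM was 14.98-fold (log2 change 3.86, limma adjusted p = 2.82e-06).

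P4ha1, the subunit of the main form of the enzyme in most cells, measured 43.1 and 45.3 FPKM in GM at 21% oxygen, 60.8 and 58.6 in DM at 21%, 278 and 273 in GM at 2%, and 399.9 and 283 in DM at 2%. Again all 4 libraries at 2% oxygen exceeded all 4 at 21%. Its mean was 6.24-fold higher at 2% oxygen in GM (log2 change 2.61, limma adjusted p = 8.41e-05) and 5.72-fold higher in DM (2.48, limma adjusted p = 1.8e-05).

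P4ha3 behaved differently. It was at 27.02 and 25.1 FPKM in GM at 21% oxygen, 10.95 and 10.85 in GM at 2%, 2.36 and 3.31 in DM at 2%, and 0.556 and 0.863 in DM at 21%. The groups did not overlap, and both GM groups lay above both DM groups. At 2% oxygen it fell by 1.19 on the log2 scale in GM (limma adjusted p = 0.00144) but rose by 1.16 in DM (limma adjusted p = 0.000599), where its mean at 2% oxygen, 2.84 ± 0.678 FPKM, was still under that of GM at 21%, 26.1 ± 1.34 (SD, n = 2). As means these were a 2.39-fold fall and a 4.00-fold rise. Adding 1 understates the log2 change, more so in DM, where levels at 21% oxygen were under 1 FPKM.

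The 3 lysyl hydroxylases all rose in both media. Plod1, which hydroxylates lysines of the helical part of collagen, was at 58.8 and 51.3 FPKM in GM at 21% oxygen, 53.5 and 45.6 in DM at 21%, 300.1 and 319 in GM at 2%, and 513 and 372 in DM at 2%. The 2 media overlapped at 21% oxygen, and every library at 2% oxygen was above them. The mean rose 5.62-fold in GM (log2 change 2.47, limma adjusted p = 0.00013) and 8.92-fold in DM (3.12, limma adjusted p = 9.53e-06).

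Plod2, the enzyme of the telopeptide lysines that form stable cross-links, had 43.5 and 50.8 FPKM in GM at 21% oxygen, 57.4 and 50.3 in DM at 21%, 222 and 199 in GM at 2%, and 359.8 and 281 in DM at 2%. Here too the media overlapped at 21% oxygen, with all libraries at 2% oxygen higher. Its rise was 4.47-fold in GM (log2 change 2.14, limma adjusted p = 0.000145) and 5.95-fold in DM (2.54, limma adjusted p = 1.35e-05).

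Plod3, which also has glycosyltransferase activity, changed least of the family. Its levels were 42.2 and 36.7 FPKM in GM at 21% oxygen, 28.2 and 26.9 in DM at 21%, 69.2 and 72.8 in GM at 2%, and 66.6 and 72.5 in DM at 2%. The 2% oxygen groups overlapped each other and lay above both groups at 21%. The increase was 1.80-fold in GM (log2 change 0.83, limma adjusted p = 0.000797) and 2.52-fold in DM (1.30, limma adjusted p = 3.55e-05). Plod3 overlaps Znhit1, which was at 27.5 ± 2.92, 20.3 ± 0.518, 32.4 ± 3.45 and 43.9 ± 0.0149 FPKM in GM and DM at 21% and GM and DM at 2% oxygen (SD, n = 2). The library kit keeps strand, but whether the counting used it is not given in the sources used here, so shared reads were not separated.

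In the lysyl oxidase family the members went in opposite directions. Lox itself was at 89 and 106 FPKM in GM at 21% oxygen, 28.8 and 27.5 in DM at 21%, 260.1 and 213 in GM at 2%, and 272 and 303 in DM at 2%. Its low level in DM at 21% oxygen had no counterpart at 2%, where both media were high and did not overlap with either group at 21%. The rise with hypoxia was 2.42-fold in GM (log2 change 1.27, limma adjusted p = 0.00058) and 10.2-fold in DM (3.31, limma adjusted p = 2.62e-06).

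Loxl2, a lysyl oxidase-like enzyme with scavenger receptor domains, was the lowest of its family in GM at 21% oxygen. It had 4.47 and 4.74 FPKM there, 6.39 and 5.57 in DM at 21%, 25.7 and 26.9 in GM at 2%, and 49.0 and 50.6 in DM at 2%. All 4 groups were apart, and the order followed oxygen first and medium second. Its mean rose 5.71-fold in GM (log2 change 2.28, limma adjusted p = 2.51e-05) and 8.33-fold in DM (2.87, limma adjusted p = 1.16e-06).

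Loxl1, the family member best known for elastic fibre assembly, fell in both media. It was at 115 and 88.1 FPKM in GM at 21% oxygen, 35.8 and 34.3 in DM at 21%, 26.6 and 29.9 in GM at 2%, and 12.3 and 20.2 in DM at 2%. No groups overlapped. The mean was 3.59-fold lower at 2% oxygen in GM (log2 change -1.80, limma adjusted p = 0.00131) and 2.16-fold lower in DM (-1.10, limma adjusted p = 0.00479).

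Loxl3 followed the medium more than the oxygen. It measured 40.6 and 38.6 FPKM in GM at 21% oxygen, 16.9 and 18.5 in GM at 2%, 3.88 and 4.44 in DM at 2%, and 3.00 and 2.26 in DM at 21%. Both GM groups were above both DM groups. With hypoxia it fell by 1.12 on the log2 scale in GM (limma adjusted p = 0.000875). In DM it rose by 0.51 (limma adjusted p = 0.0109), a call lost without DM at 21% oxygen replicate B (limma adjusted p = 0.0709), with array quality weights (0.0702) and with only the libraries compared (0.0505). Loxl3 overlaps Htra2, which was at 31.4 ± 2.74 FPKM in GM and 63.8 ± 1.49 in DM at 21% oxygen, and at 11.8 ± 0.099 in GM and 6.83 ± 0.109 in DM at 2% (SD, n = 2); the part of shared reads in either gene was not tested.

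**Figure D2:**
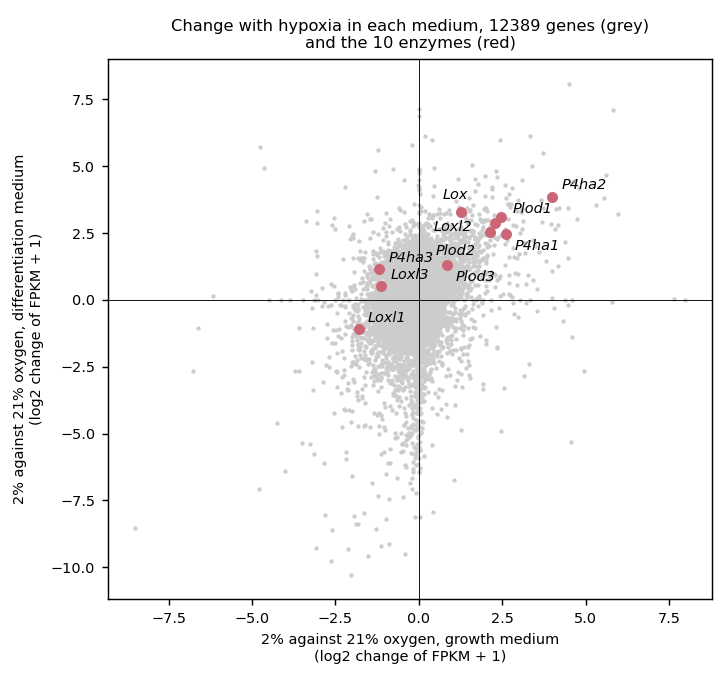
Change at 2% against 21% oxygen in growth medium (horizontal) and in differentiation medium (vertical), as log2 of FPKM + 1, for 12389 tested genes (grey) and the 10 enzymes (red). Of the 10, 7 lie in the upper right, P4ha3 and Loxl3 in the upper left and Loxl1 in the lower left.

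At 21% oxygen the lysyl oxidases Lox, Loxl1 and Loxl3 and the subunit P4ha3 were much lower in DM than in GM. In all, 3 of the 10 rose and 5 fell, beside 25.5% and 41.0% of all tested genes, and their median change of -0.33 compared with -0.20 for all genes. Among all genes called, 38.4% were higher, and 53.6% under median-of-ratios scaling. The comparison shares its GM libraries with hypoxia in GM and its DM libraries with hypoxia in DM, so it is not independent of them. The 2 largest falls were in P4ha3, whose mean was 36.8-fold lower (log2 change -3.99, SE 0.15, limma adjusted p = 2.72e-06), and Loxl3, 15.03-fold lower (-3.49, SE 0.13, limma adjusted p = 2.26e-06); 24 and 48 of the tested genes fell more. Lox fell by 1.75 (SE 0.13, limma adjusted p = 4.34e-05) and Loxl1 by 1.50 (SE 0.23, limma adjusted p = 0.00114). P4ha2 rose by 0.81 (limma adjusted p = 0.00346). The fall of Plod3 (log2 change -0.50, limma adjusted p = 0.00293) missed the threshold under median-of-ratios scaling (limma adjusted p = 0.055). Loxl2 rose by 0.31 (limma adjusted p = 0.0207), but not without replicate A of GM at 21% oxygen (0.0744) or of DM at 21% (0.128). P4ha1 rose by 0.43 (limma adjusted p = 0.0426), a call lost without either replicate of GM at 21% oxygen, DM at 21% or GM at 2% (limma adjusted p from 0.0719 to 0.159), with no expression filter (0.0662) and with no intensity trend (0.0501). Plod1 (log2 change -0.15, limma adjusted p = 0.449) and Plod2 (0.19, limma adjusted p = 0.287) did not pass the test, and under median-of-ratios scaling the value for Plod1 was 0.12.

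The step from GM to DM looked different at 2% oxygen. There 3 of the 10 rose and 3 fell, beside 23.3% and 17.6% of all tested genes. The enzymes that rose numbered 2 under median-of-ratios and 1 under upper-quartile scaling, with 3 falling under both. Upper-quartile scaling moved the higher share of all called genes from 56.9% to 48.3%. Loxl3 (log2 change -1.86, limma adjusted p = 0.000287) and P4ha3 (-1.65, limma adjusted p = 0.000685) again fell, and Loxl2 rose by 0.90 (limma adjusted p = 0.000884). The other 3 calls were less firm: P4ha2 rose by 0.67 (limma adjusted p = 0.0155), Plod2 by 0.59 (0.019), and Loxl1 fell by 0.80 (0.0311). Each was lost without either replicate of GM at 2% oxygen (limma adjusted p from 0.0597 to 0.148), and Loxl1 also without either of DM at 21% or replicate A of DM at 2% (0.0577 to 0.0683). Under upper-quartile scaling P4ha2 (limma adjusted p = 0.0511) and Plod2 (0.0685) were lost, as were P4ha2 with array quality weights (0.0573), Plod2 under median-of-ratios scaling (0.0508), Plod2 (0.0554) and Loxl1 (0.0823) with only the libraries compared, and Loxl1 with no expression filter (0.055). Lox, which had fallen at 21% oxygen, changed by 0.29 here and did not pass (limma adjusted p = 0.123), and neither did P4ha1 (0.29, limma adjusted p = 0.175), Plod1 (0.50, limma adjusted p = 0.0514) or Plod3 (-0.03, limma adjusted p = 0.827). Without replicate B of DM at 2% oxygen, P4ha1 (limma adjusted p = 0.00254) and Plod1 (0.0059) passed.

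**Figure D3:**
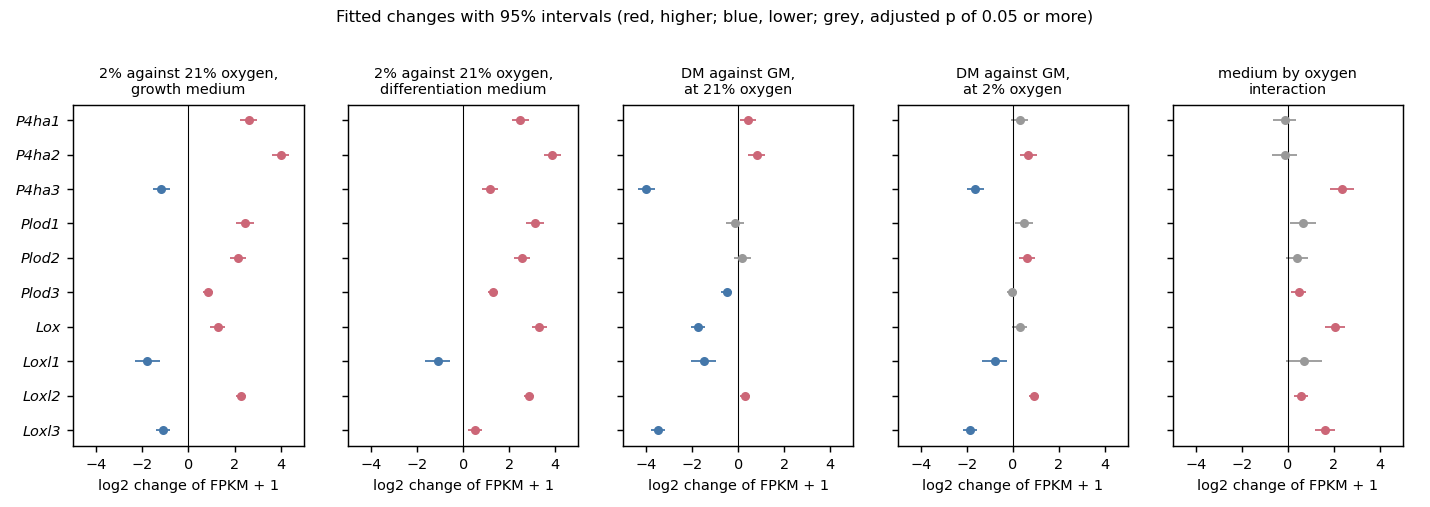
Fitted change of each enzyme gene (points, log2 of FPKM + 1) with its 95% interval (bars) in the 5 comparisons; red rose, blue fell, grey did not pass. Hypoxia moved P4ha2 by 4.00 in growth and 3.86 in differentiation medium, and its interaction interval spans 0.

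Whether the change between 21% and 2% oxygen was the same in both media was tested with the medium by oxygen interaction. It is positive where the change with hypoxia was higher in DM. Myotube markers summed to 7699 and 7715 FPKM in DM at 21% oxygen and to 17.4 and 9.72 in DM at 2%. In the interaction, oxygen and the state of the cultures therefore cannot be told apart. It passed in the positive direction for 5 of the 10 and in the negative for 0, beside 35.4% and 18.7% of all tested genes; the median gene had an interaction of 0.27, and of all genes called 65.5% were positive, against 47.3% under median-of-ratios and 53.6% under upper-quartile scaling. By unadjusted p under 0.05 the negative count was also 0. P4ha3 had the largest (log2 2.34, SE 0.22, limma adjusted p = 0.000223), followed by Lox (2.04, SE 0.18, limma adjusted p = 0.000206) and Loxl3 (1.63, SE 0.18, limma adjusted p = 0.000478). Loxl2 (0.58, limma adjusted p = 0.00899) and Plod3 (0.47, limma adjusted p = 0.0218) passed, but neither did under median-of-ratios scaling (limma adjusted p = 0.113 and 0.342) or upper-quartile scaling (0.0561 and 0.132), and Plod3 was also lost without either replicate of DM at 21% or GM at 2% oxygen (0.0539 to 0.0822). For P4ha1 the difference between media was -0.14 (95% interval -0.65 to 0.38, limma adjusted p = 0.609) and for P4ha2 it was -0.14 (-0.67 to 0.39, limma adjusted p = 0.613). Plod1 (0.65, interval 0.09 to 1.20, limma adjusted p = 0.0538), Plod2 (0.40, limma adjusted p = 0.141) and Loxl1 (0.70, limma adjusted p = 0.108) did not pass. Without replicate B of DM at 2% oxygen Plod1 (limma adjusted p = 0.00461) and Plod2 (0.0266) did, as did P4ha1 (-0.39, 0.0117) and Loxl1 (1.03, 0.00663) without replicate A.

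The make-up of each family shifted with oxygen. As a share of the summed FPKM of the 3 P4ha genes, P4ha2 went from 22.2% ± 0.323 in GM and 37.3% ± 3.38 in DM at 21% oxygen to 54.0% ± 0.899 and 61.2% ± 1.09 at 2% (SD, n = 2 each). It was thus below P4ha1 in all 4 libraries at 21% oxygen, with a ratio of P4ha2 to P4ha1 from 0.449 to 0.663, and above it in all 4 at 2%, with ratios from 1.19 to 1.65. P4ha3 held 28.9% ± 1.69 in GM at 21% oxygen and between 0.336% and 1.75% on average in the other groups. The family's sum was 90.3 ± 0.655 FPKM in GM and 96.5 ± 7.28 in DM at 21% oxygen, and 623 ± 5.44 and 885 ± 186 at 2%.

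Among the Plod genes, the share of Plod1 was 38.8% ± 2.65 and 37.8% ± 0.922 in GM and DM at 21% oxygen and 52.3% ± 2.25 and 52.9% ± 2.37 at 2%. Plod3 went from 27.8% ± 1.96 and 21.1% ± 1.14 to 12.0% ± 0.439 and 8.54% ± 2.06. Plod2 stayed between 30.1% and 41.3% in all 8 libraries.

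Among the lysyl oxidases the share of Lox was higher and that of Loxl1 lower at 2% oxygen. Loxl1 made up 41.6% ± 6.39 of the family's sum in GM and 48.8% ± 0.64 in DM at 21% oxygen, but 9.22% ± 1.64 and 4.49% ± 1.2 at 2%. Lox held 40.2% ± 6.29 and 39.2% ± 0.384 at 21% oxygen and 76.4% ± 3.63 and 80.4% ± 0.403 at 2%. The summed level was lowest in DM at 21% oxygen, at 71.8 ± 3.07 FPKM, and was 243 ± 7.92 in GM at 21%, 309 ± 29 in GM at 2% and 358 ± 29.1 in DM at 2%. Shares are descriptions, with no test.

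**Figure D4:**
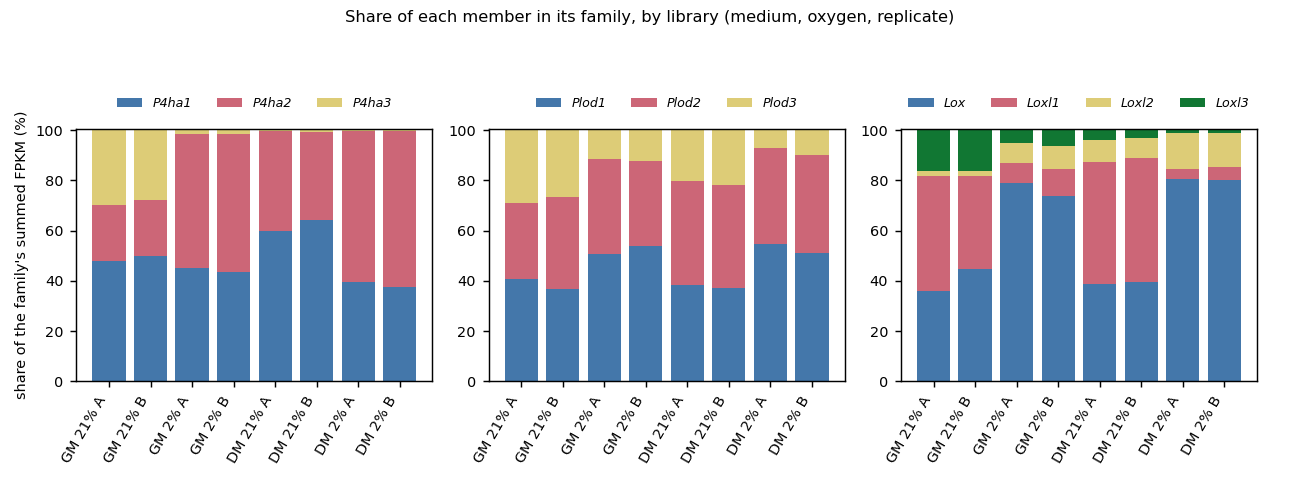
Share of each gene in the summed FPKM of its family (stacked bars, percent) in each of the 8 libraries. P4ha2 exceeds P4ha1 in all 4 libraries at 2% oxygen and in none at 21%, and Loxl1 takes 37.1% to 49.3% at 21% oxygen against 3.64% to 10.4% at 2%.

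Of 29 genes of collagen processing and secretion, which act beside these enzymes, 23 were tested. With hypoxia in GM, 6 rose and 6 fell, beside 13.5% and 28.0% of all tested genes, with a median change of -0.09 against -0.14 for all genes. In DM, 14 rose and 4 fell, beside 37.5% and 27.7%, with a median of 0.66 against 0.15. P4hb, the β subunit that every P4ha protein needs, averaged 419 ± 6.46 FPKM in GM and 216 ± 13.1 in DM at 21% oxygen, 1015 ± 11.2 in GM and 1457 ± 163 in DM at 2% (SD, n = 2). It rose with hypoxia by 1.27 in GM (limma adjusted p = 0.000257) and 2.74 in DM (limma adjusted p = 2.25e-06). The ratio of summed P4ha to P4hb FPKM was 0.212 and 0.219 in GM at 21% oxygen, 0.451 and 0.441 in DM at 21%, and 0.561 to 0.646 in the 4 libraries at 2%.

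Of the prolyl 3-hydroxylases, which modify other collagen prolines, Leprel1 (now P3h2) rose by 1.33 in GM (limma adjusted p = 0.00113) and Leprel2 (now P3h3) by 0.83 (limma adjusted p = 0.00145). Lepre1 (now P3h1) did not pass in GM (-0.22, limma adjusted p = 0.12). Leprel1 rose in DM as well, by 1.23 (limma adjusted p = 0.000583). In DM Lepre1 rose by 0.36 (limma adjusted p = 0.0161), but did not pass under median-of-ratios (0.272) or upper-quartile scaling (0.0585). Leprel2 rose by 3.27 in DM (limma adjusted p = 1.26e-06), where it stood at 3.76 ± 0.237 FPKM at 21% oxygen and 44.9 ± 4.95 at 2%. Loxl4, the remaining lysyl oxidase, rose by 0.75 in GM (limma adjusted p = 0.0186) and 1.51 in DM (limma adjusted p = 0.000445); it was at 8.24 ± 1.09 FPKM in GM and 3.51 ± 0.734 in DM at 21% oxygen and is named here after its values were seen. Pcolce, an enhancer of procollagen cleavage, fell by 0.73 in GM (limma adjusted p = 0.00604) and rose by 1.99 in DM (limma adjusted p = 3.02e-05). Bmp1, the protease that removes the procollagen C-propeptide and activates Lox, fell by 0.91 in GM (limma adjusted p = 0.0076). In DM Bmp1 rose by 0.50 (limma adjusted p = 0.0425), but did not pass under median-of-ratios scaling (0.0928). Fkbp7, an endoplasmic reticulum prolyl isomerase, fell by 0.77 in GM (limma adjusted p = 0.00178). In DM the largest fall of the list was in Tmem38b, a cation channel of the endoplasmic reticulum, from 58.4 ± 2.23 FPKM at 21% oxygen to 4.86 ± 0.172 at 2% (log2 change -3.34, limma adjusted p = 7.46e-07).

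The collagens are the substrates of these enzymes. Of 9 tested fibrillar collagen genes 1 rose and 3 fell with hypoxia in GM, beside 13.5% and 28.0% of all tested genes, and 4 rose and 3 fell in DM, beside 37.5% and 27.7%, counts close to those shares. Col5a1 was the one that rose in GM (0.74, limma adjusted p = 0.00193), and it rose in DM too (1.14, limma adjusted p = 0.000105). Col1a2, a chain of the main fibrillar collagen, fell by 0.67 in GM (limma adjusted p = 0.000855) and rose by 0.755 in DM (limma adjusted p = 0.000171). Its levels were 288 ± 11 FPKM in GM and 110.3 ± 6.96 in DM at 21% oxygen, and 180.3 ± 1.79 and 187 ± 3.54 at 2%. The gene of the other chain, Col1a1, did not pass in GM (0.205, limma adjusted p = 0.179) or in DM (-0.250, limma adjusted p = 0.0835). Under median-of-ratios scaling the fibrillar counts were 2 up and 3 down in GM and 4 and 4 in DM.

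Of 5 tested basement membrane collagen genes, 0 rose and 2 fell with hypoxia in GM, and 1 rose and 3 fell in DM; by unadjusted p under 0.05 the count rising in GM was also 0, and under median-of-ratios scaling 0 rose in DM. Col4a1 and Col4a2 fell in DM by 1.97 (limma adjusted p = 0.00236) and 2.14 (limma adjusted p = 0.00138). Their replicates lay apart in DM at 2% oxygen, at 7.60 and 19.1 FPKM for Col4a1 and 6.45 and 15.9 for Col4a2. In DM at 21% oxygen Col4a1 had 51.1 and 49.7 FPKM and Col4a2 had 49.4 and 47.6. Of 12 other collagen genes, 2 rose and 4 fell in GM, and 3 rose and 6 fell in DM. For both lists the shares of all tested genes were 13.5% rising and 28.0% falling in GM. In DM these shares were 37.5% and 27.7%. Col12a1, a fibril-associated collagen, rose from 98.2 ± 12.6 to 306 ± 2.27 FPKM in GM (limma adjusted p = 0.000184) and from 21.0 ± 0.105 to 132 ± 17.3 in DM (limma adjusted p = 5.01e-06). Col6a1, a microfibril collagen, fell from 308 ± 15.9 to 91.1 ± 2.14 FPKM in GM (limma adjusted p = 3.01e-05) and from 137 ± 1.28 to 43.9 ± 2.29 in DM (limma adjusted p = 5.14e-06).

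Among 16 tested genes of elastic fibres and lysyl oxidase partners, 3 rose and 6 fell with hypoxia in GM, beside 13.5% and 28.0% of all tested genes, and 5 rose and 10 fell in DM, beside 37.5% and 27.7%. Emilin1, an elastic fibre glycoprotein, fell by 2.42 in GM (limma adjusted p = 5.98e-05), and Postn, a matricellular protein that binds Bmp1, fell by 1.95 (limma adjusted p = 0.000371). Fbln5, a tether between Loxl1 and elastin, rose by 1.04 in GM (limma adjusted p = 0.00043) and fell by 1.87 in DM (limma adjusted p = 9.1e-06). Efemp2, which brings Lox to tropoelastin, rose by 2.35 in DM (limma adjusted p = 1.48e-05). The elastin gene itself, Eln, averaged at most 0.063 FPKM in any group, was at 0 in both groups at 2% oxygen, and was not tested.

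**Figure D5:**
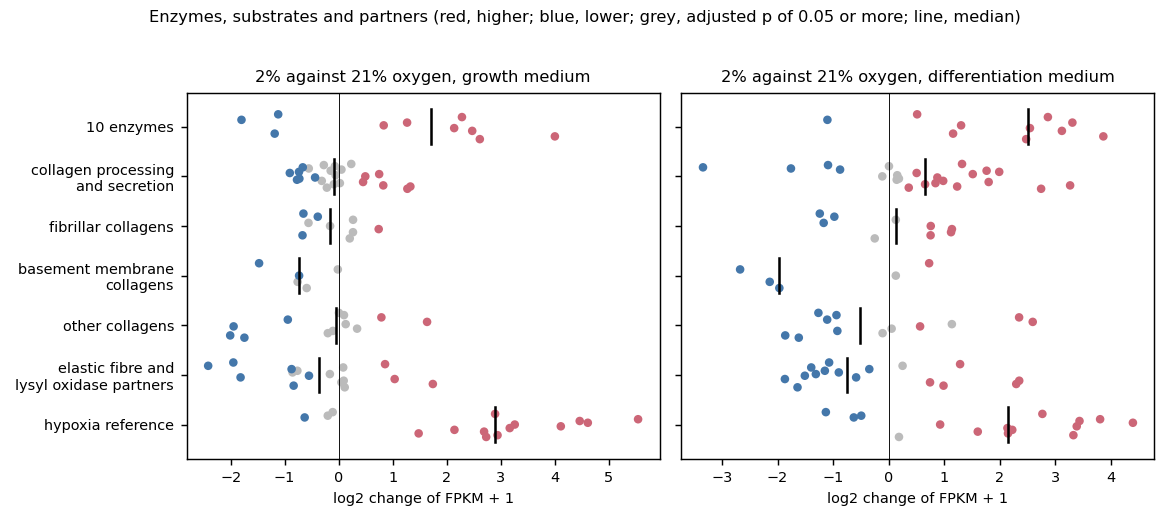
Change at 2% against 21% oxygen (log2 of FPKM + 1) in growth medium (left) and differentiation medium (right) for every tested gene of each list; red rose, blue fell, grey did not pass, and the vertical line is the list's median. The 10 enzymes have medians of 1.70 and 2.51, the 9 fibrillar collagens -0.16 and 0.13, and the 15 hypoxia reference genes 2.90 and 2.15.

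A reference list of well-known hypoxia genes gave a scale for these changes. Of its 15 tested genes, 12 rose and 1 fell in GM, beside 13.5% and 28.0% of all tested genes. In DM 11 rose and 3 fell, beside 37.5% and 27.7%. Slc2a1, the glucose transporter, rose by 2.94 in GM (limma adjusted p = 2.77e-05) and 3.32 in DM (limma adjusted p = 2.17e-06), values between those of Plod1 and P4ha2. The largest rises of the list in GM were in Adm, Ankrd37 and Ndrg1, by 5.5, 4.6 and 4.5, above the 4.00 of P4ha2. In DM these genes rose by 3.8, 4.4 and 3.4, where P4ha2 rose by 3.86. Hif1a itself fell, by 0.63 in both media (limma adjusted p = 0.0173 in GM and 0.0104 in DM), but in GM it did not pass under median-of-ratios (0.0543) or upper-quartile scaling (0.0785). Vegfa was at 71.5 ± 1.08 FPKM in GM and 321 ± 15.6 in DM at 21% oxygen and had an interaction of -2.54 (limma adjusted p = 0.000145).

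Each enzyme was also set beside the tested genes whose pattern over the 8 libraries was most like it, by the root mean square difference of log2(FPKM + 1) after centring each gene on its own mean. Closest to P4ha1 was Sema3c (0.109), closest to P4ha2 the kinase Ak4 (0.155), and closest to Plod1 the lactate transporter Slc16a3 (0.097). The phosphofructokinase gene Pfkp was the second nearest to both P4ha1 (0.130) and Plod2 (0.144). For P4ha2 the second was Pfkfb3 (0.220), a regulator of glycolysis, and for Plod1 it was Bsg (0.180), the chaperone of lactate transporters. Lox was nearest to Pqlc3 (0.138), Loxl1 to Fam117a (0.184), Loxl2 to Espn (0.129), Plod2 to Prelid2 (0.136) and Plod3 to Ankrd9 (0.102). P4ha3 lay nearest to Csrp2 (0.209), and Loxl3 to Prrx2 (0.101). The second nearest were Fbln1 for P4ha3 (0.241), Meis2 for Plod3 (0.110) and Plekha2 for Lox (0.139). They were Rem1 for Loxl1 (0.190), Stc1 for Loxl2 (0.160) and C1qtnf1 for Loxl3 (0.256). Within the 10, P4ha1 and Plod2 were the closest pair (0.184), and P4ha3 and Loxl3 were 0.285 apart. These distances describe 8 libraries that share 4 conditions. Adding 1 shrinks the changes of low genes, so a low gene can lie near a higher one whose fold change differs. In GM, Sema3c averaged 0.698 FPKM in normoxia and 9.54 in hypoxia, against 44.2 and 275 for P4ha1. Espn averaged 0.219 and 4.37, against 4.61 and 26.3 for Loxl2. By contrast, Slc16a3 (25.3 and 151) and Plod1 (55.0 and 309) were both far above 1 FPKM.

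The state of the cultures differed between the groups. The summed FPKM of 8 myotube markers was 7699 and 7715 in DM at 21% oxygen, 17.4 and 9.72 in DM at 2%, and 3.45 to 33.0 in GM, so the hypoxia comparison in DM sets cultures with myotube transcripts against cultures almost without. The 6 myoblast markers, which the fused cells also express in part, summed to 1188 and 1197 in DM at 21% oxygen and 124.5 to 609 elsewhere. Of 6 fibroblast markers 4 were tested, with sums from 41.2 to 44.65 in DM at 21% oxygen, 84.9 to 105 in GM and 149 to 233 in DM at 2% (mostly Cd34 outside DM at 21%), while Thy1 and Lum were at or near 0. Of 6 osteoblast markers, 3 were tested (sums 6.75 to 105), and of 6 adipocyte markers 3 (3.83 to 29.95, Plin1 at 0). Endothelial markers summed to at most 0.52 in any library, and the macrophage sum of up to 43.2 in DM at 2% oxygen was mostly Cd68, with Emr1 at 0 and Ptprc at most 0.00684 on average. The part of these cell states in the enzyme levels was not tested, and in bulk RNA fewer cells of a type and less RNA per cell cannot be told apart. The 2 replicates correlated over genes at 0.975, 0.982 and 0.983 in the other groups and at 0.958 in DM at 2% oxygen, where replicate A gave the higher P4ha1, P4ha2, Plod1 and Plod2 values. Total fragment counts are not in the table; from the steps between low values, the depth relative to DM at 2% oxygen replicate A was 0.629 for its replicate B and 0.683 to 0.901 for the others.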

How the data were processed

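RNA-seq of C2C12 cells was analysed from 1 gene table with a column for each of 8 libraries. The deposited values are FPKM; the submitters' processing notes name STAR 2.5.1b, Cufflinks 2.2.1 and build mm9, with no annotation or use of strand given in the sources used here. Libraries were made from total RNA with a stranded kit, per the labels' protocols. The table's name speaks of counts, but its values are not whole numbers.

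The test was limma 3.58.1 (R 4.3.3, intensity trend, two-sided) on log2(FPKM + 1) of 12389 of the 24043 genes, those whose highest group mean reached 1 FPKM. The 4 group means were fitted together without a replicate block (4 residual and 2.61 prior degrees of freedom), and 5 contrasts were adjusted by Benjamini-Hochberg over all tested genes, with calls at 0.05. It was tested on simulated data. P-values set a change against the spread between the 2 libraries of a group, pooled over the 4 groups and moderated across genes. The members, gene lists and tests were chosen with earlier results of these data known. Named genes are all 10 members; the 2 most similar genes of each member; and, from each list and contrast, up to 3 of the largest rises and falls among genes past the threshold with at least 5 FPKM in the highest group. A comparison of protein sequences was not done here. Between libraries of different groups with the same letter, deviations from the group means correlated by -0.166 to 0.042, those below -0.1 all with GM at 2% oxygen, so letters were not treated as pairs. Alternatives were other scalings, pseudocounts, filters, moderation, array weights, a replicate block, fits to only the libraries compared, and leaving out each library.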

Additional observations from a re-analysis of the deposited data

Results flagged for a closer look

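In 5 of the 10 genes the change with hypoxia differed between the media by limma's test of the difference itself (2 libraries in each of the 4 groups), all in the positive direction. Of all tested genes 35.4% were called in that direction and 18.7% in the other. P4ha3 fell in GM and rose in DM, with a difference of 2.345 (log2). Loxl3 did likewise, with 1.633. Lox rose in both and more in DM, with a difference of 2.040. Loxl2, at 0.583, and Plod3, at 0.470, also rose more in DM, but these 2 differences did not pass under other scalings. The median over all tested genes was 0.267.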

How the results depend on the processing

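Under every alternative other than a minimum change, the 10 hypoxia calls in GM kept direction and side of the threshold, and in DM 9 of 10 did, the exception being Loxl3. For differentiation this held for 6 of the 10 genes at 21% oxygen and 4 at 2%, and for the interaction for 3. Other scalings moved the median of all genes, from -0.199 to 0.030 for differentiation at 21% oxygen, from 0.147 to -0.029 for hypoxia in DM and from 0.267 to -0.014 for the interaction (median-of-ratios), and from -0.136 to 0.000 for hypoxia in GM (upper-quartile). With a log2 change of at least 1 also required, which passes fewer genes by construction, enzymes called numbered 4 of 8 for differentiation at 21% oxygen, 2 of 6 at 2% and 3 of 5 for the interaction, and all genes 3542 of 8241, 925 of 5073 and 3410 of 6707; hypoxia gave 9 of 10 enzymes in each medium, without Plod3 in GM and Loxl3 in DM, and 1268 of 5135 genes in GM and 3420 of 8075 in DM. The interaction count was 3 under median-of-ratios and under upper-quartile scaling. Plod1 for differentiation at 21% oxygen turned to 0.122 under median-of-ratios scaling. With only the libraries compared, 3034 genes were called for differentiation at 2% oxygen. Leaving out 1 library at a time, enzymes called for differentiation at 2% oxygen ranged from 3 (without either replicate of GM at 2%) to 8, with all genes from 2501 to 6529; all genes for hypoxia in GM ranged from 2997 to 6844. In the same way Plod3 at 2% oxygen ranged from -0.092 to 0.030, and the interactions of P4ha1 from -0.387 to 0.110 and of P4ha2 from -0.338 to 0.057. Causes were not tested. The letters A and B share only a name: with a replicate block, enzymes called were 8, 7, 10, 10 and 6 for differentiation at 21% and 2% oxygen, hypoxia in GM and DM, and the interaction (8, 6, 10, 10 and 5 without); the added Plod1 calls had adjusted p of 0.0375 and 0.0357. With the letters of GM at 2% oxygen crossed, chosen after seeing the data, the counts were 8, 6, 10, 10 and 6. Depth in fragments is unknown, which limits what can be said of levels near 1 FPKM, such as P4ha3 in DM at 21% oxygen.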
